A study of Rattus norvegicus with 9 samples.

Results

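Genes for the uptake, binding, activation, oxidation and storage of fatty acids were followed in cultured rat cardiac fibroblasts of 3 ages. The set was a list of 41 named genes, and a gene entered when its symbol was present in the count table. Of the 41, 39 were present among 17337 genes, and Plin3 and Plin4 were not. The filter on low counts left 36 of the 39 among 11337 genes tested, and Acsl6, Echs1 and Pnpla2 did not pass it. RNA was sequenced from 9 libraries of fibroblasts, the connective tissue cells that make the matrix of the heart, all from Sprague Dawley rats. The 3 fetal libraries came from embryonic day 18, the 3 neonatal libraries from postnatal day 1 and the 3 adult libraries from rats 7 weeks old. All groups shared the same culture: cells at passage 0 grew to confluency in T75 flasks, in DMEM that contained 10% fetal bovine serum, penicillin and streptomycin, and 0.1 mM ascorbic acid. The labels name no sort, and they do not say whether the 3 libraries of an age came from separate animals or flasks, so p-values measure the spread between these libraries, which may be technical.

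Long-chain fatty acids enter cells with the help of membrane proteins such as CD36 and are carried in the cytosol by fatty acid-binding proteins. Acyl-CoA synthetases activate them, the carnitine shuttle moves them into mitochondria, and beta-oxidation shortens them in repeated cycles whose electrons pass through the electron transfer flavoprotein to the respiratory chain. Heart muscle draws most of its energy from this pathway after birth, whereas the fetal heart relies more on glucose and lactate. Fatty acids that are not burned are stored as triglyceride in droplets coated by perilipins, and PPAR nuclear receptors with the coactivator PGC-1alpha regulate many of these genes.

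Library totals ran from 13392825 to 22850491 assigned counts, and levels are given as CPM, a gene's counts over the TMM-scaled library total, or as TPM, which divides by exon length first, where genes are compared per length. Fetal replicate 3 stood apart: the chi-square of its counts over degrees of freedom was 90.0 and 97.3 against the other fetal libraries, which differed from each other by 3.94. Adult replicate 1 also differed from the other adult libraries, at 25.8 and 43.0, against 6.76 between those, while neonatal libraries differed by 2.05 to 2.76. In fetal replicate 3 the 8 lung epithelial markers summed to 229 CPM, against 3.46 and 4.14 CPM in fetal replicates 1 and 2. Nearly all of that sum came from Cdh1, Cldn18, Epcam and Nkx2-1, at 113, 58.5, 47.0 and 9.83 CPM. Sftpa1 and Sftpb were at 0 in that library, and Sftpc and Sftpd at 0.74 and 0.27 CPM. Results that rest on that library are therefore also given without it. It is not part of adult to neonatal differences, so leaving it out changes the estimated spread of these and hardly their size. The 9 fibroblast markers summed to 49545, 46731 and 22550 CPM in fetal replicates 1 to 3, 66463 to 72722 in neonatal and 21861 to 28824 in adult libraries, and Col1a2 lay below 1 CPM in all of them. Col1a1 and Col3a1 made up most of these sums. Of the 9, 3 were higher in neonatal and 3 in adult libraries than at both other ages. The 3 in adult libraries were Pdgfra, Tcf21 and Dcn, with adult means of 433, 149 and 353 CPM. Markers of other cells moved with age too. The 14 macrophage markers summed to 15.2 to 77.1 CPM in fetal, 171 to 189 in neonatal and 4716 to 6521 in adult libraries; 13 of the 14 were higher in adult libraries than at both other ages, and Marco was at 0 throughout. The 13 cardiomyocyte markers in the table summed to 10561 to 14864 CPM in fetal, 6653 to 7322 in neonatal and 306 to 320 in adult libraries, where Myh6, Myh7, Myl2, Myl7 and Csrp3 had at most 3 counts. Nearly all of the adult sum was Tnnt2, at 303, 310 and 316 CPM, and no other of these markers exceeded 1.45 CPM in an adult library. Endothelial markers summed to 17.2 to 20.7, 23.6 to 28.9 and 92.3 to 108 CPM in the same order, and adipocyte markers stayed below 10 CPM with Adipoq, Retn, Pck1 and Ucp1 at no more than 3 counts in any library. Most of the adult endothelial sum was Tie1, at 68.6 to 72.5 CPM. Of the 9 endothelial markers, 4 were higher in adult and 2 in neonatal libraries than at both other ages. Kdr was lowest in adult libraries, with a mean of 0.90 CPM against 2.58 in fetal and 5.55 in neonatal. In these bulk samples fewer cells of a type and less RNA per cell cannot be told apart, and the part of these other cells in the results below was not tested.

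Adult cells differed from fetal cells by a few large increases (the binding proteins Fabp4 and Fabp5, the thioesterase Acot1 and the lipase inhibitor Angptl4), by the loss of all counts of the coactivator gene Ppargc1a, and by smaller shifts in both directions among the oxidation enzymes. Of the 36 tested genes, 12 were higher and 6 lower in adult than in fetal cells (edgeR, adjusted p under 0.05); 70.5% of all genes tested were called in that comparison, 34.9% higher and 35.5% lower. The median log2 fold change of the 36 was 0.15, beside -0.01 for all genes tested. Of the same 36, 9 were higher and 7 lower in adult than in neonatal cells, where 63.5% of all genes were called (31.6% higher and 31.8% lower), and the medians were 0.01 and -0.01. Between neonatal and fetal cells 7 were higher and 5 lower beside 36.3% of all genes (18.3% higher and 18% lower), with medians of 0.06 and -0.01. The share of fatty acid genes called was thus 50%, 44.4% and 33.3%, beside 70.5%, 63.5% and 36.3% of all genes, and the last 2 values of these are close. These shares depended on fetal replicate 3. Without that library more of the 36 and more of all genes were called in each pair, with the counts given below. Across the 3 ages, 21 of the 36 differed, beside 77.6% of all genes. Differences of at least 1 on the log2 scale were found for 7 higher (Fabp4, Fabp5, Acaa1a, Ehhadh, Acot1, Plin2 and Angptl4) and 2 lower genes (Cpt1b and Ppargc1a) in adult against fetal cells, beside 16.6% and 15.8% of all genes, for 4 and 1 in adult against neonatal cells, beside 12.8% and 12.2%, and for 1 and 0 in neonatal against fetal cells, beside 5.8% and 5.42%. The libraries of both ages did not overlap for 18, 23 and 19 of the 36 in these pairs, beside 71.8%, 76.1% and 57.4% of all genes. The 3 comparisons share libraries, so their values are set side by side below without a comparison between them.

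**Figure D1:**
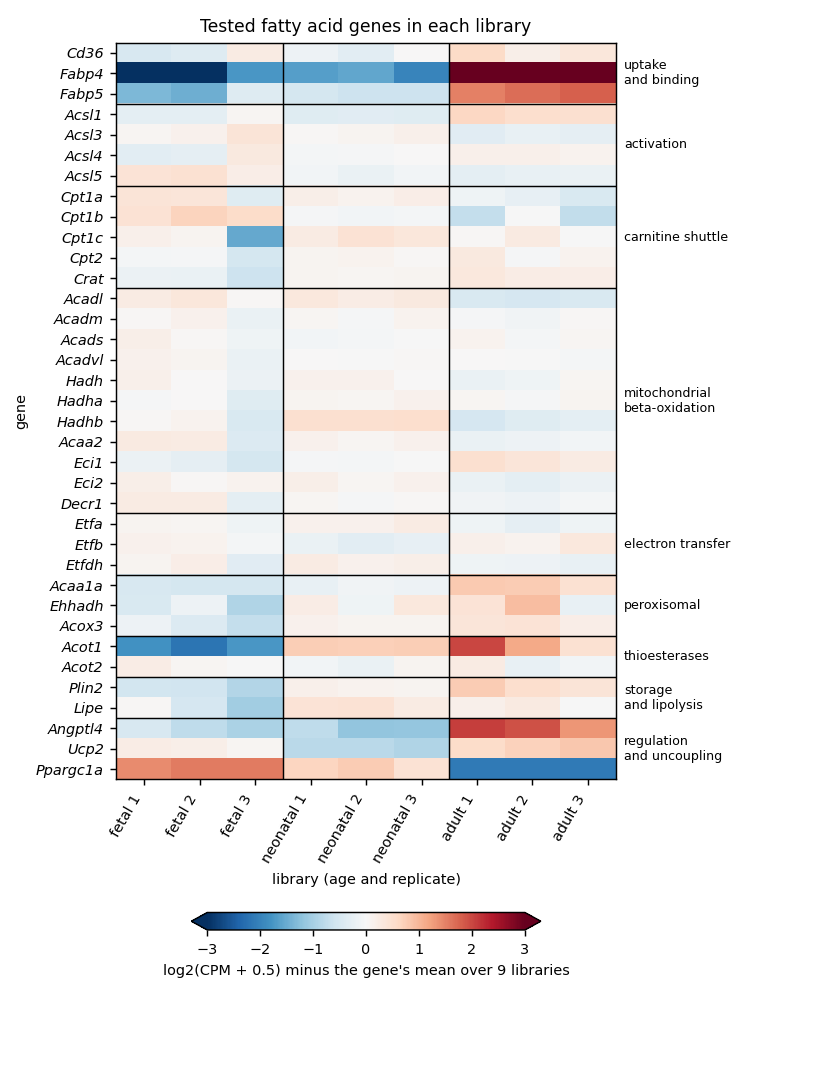
Level of each of the 36 tested genes (rows, by role) in the 9 libraries (columns), as log2(CPM + 0.5) minus the gene's mean over the 9 libraries, with colours ending at -3 and 3. The adult columns of Fabp4, Fabp5 and Angptl4 are red and those of Ppargc1a blue, while most mitochondrial beta-oxidation rows are pale at every age.

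Both binding proteins rose steeply in adult cells. Fabp5, the fatty acid-binding protein first described in skin (rn6 chr2:93981662-93985319), had 103, 94.7 and 201 CPM in fetal replicates 1 to 3, then 181, 171 and 169 CPM in neonatal and 748, 833 and 909 CPM in adult replicates. Every adult library lay far above every other, and the fetal and neonatal libraries overlapped. The adult mean was 6.25 times the fetal (log2 2.64, SE 0.27, adjusted p = 2.49e-05) and 4.78 times the neonatal mean (log2 2.26, SE 0.26, adjusted p = 8.69e-05). The neonatal to fetal difference of 0.39 (SE 0.25) was not called (adjusted p = 0.256) with all libraries, and was 0.82 (adjusted p = 2.01e-05) without fetal replicate 3. Fabp4, the adipocyte and macrophage paralog (chr2:93792666-93797267), lies 184395 bases from Fabp5. It had 0, 0 and 0.85 CPM in fetal libraries, where all 16 counts came from replicate 3, then 0.94, 1.02 and 0.65 CPM in neonatal and 79.7, 101 and 114 CPM in adult libraries. No library of the younger ages thus exceeded 1.02 CPM, and the adult mean was 110 times the neonatal (log2 6.78, SE 0.49, adjusted p = 5.39e-06), while neonatal and fetal cells were not called different over all libraries (1.70, SE 0.89, adjusted p = 0.163). Against fetal cells the log2 difference was 8.48 (SE 0.56, adjusted p = 2.0e-06) over all libraries. Without fetal replicate 3 the fetal libraries held no count, and the adult mean was at least 667-fold higher, and the neonatal mean at least 5.90-fold higher, taking 3 counts per library as the floor. Such floors cover counting error only. Cd36, the membrane fatty acid translocase, stayed low, at 2.75, 2.95 and 4.89 CPM in fetal, 3.58, 3.11 and 4.08 in neonatal and 6.20, 4.62 and 5.24 CPM in adult libraries. The adult to fetal difference of 0.60 (SE 0.25) was not called (adjusted p = 0.0581), and without fetal replicate 3 it was 0.90 (adjusted p = 0.00208), with 0.58 (adjusted p = 0.0133) against neonatal cells, which was 0.58 (adjusted p = 0.0728) over all libraries. The annotation of Cd36 shares 320 of its 2597 exon bases with another gene, and the part of the shared bases in its level was not tested. Beside these increases stand the macrophage markers, whose adult sums were far above both younger ages; Fabp4, Fabp5 and Cd36 are also expressed by macrophages, and the part of such cells was not tested.

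Per length, Fabp5 had the highest mean of the 39 genes at every age, at 464 ± 224, 558 ± 19.3 and 2330.4 ± 262 TPM in fetal, neonatal and adult cells (mean ± SD, n = 3 libraries). The summed level of the 39 was 3166 ± 49.2, 3134 ± 46.3 and 4968 ± 365 TPM. Fabp5 alone made up 14.6%, 17.8% and 46.8% of these sums. Leaving out Fabp4 and Fabp5, the other 37 summed to 2700.5 ± 182, 2573 ± 42.7 and 2315 ± 41.9 TPM, so the higher adult sum lay in the binding proteins. After TMM scaling these 37 summed to 2382, 2405 and 2059 CPM in fetal, 2319 to 2394 in neonatal and 2358 to 2398 CPM in adult libraries. The lower adult sum of the 37 was thus seen in TPM and not in CPM. Without fetal replicate 3 the fetal means were 335 TPM for Fabp5, 3139 for all 39 and 2804 for the other 37.

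**Figure D2:**
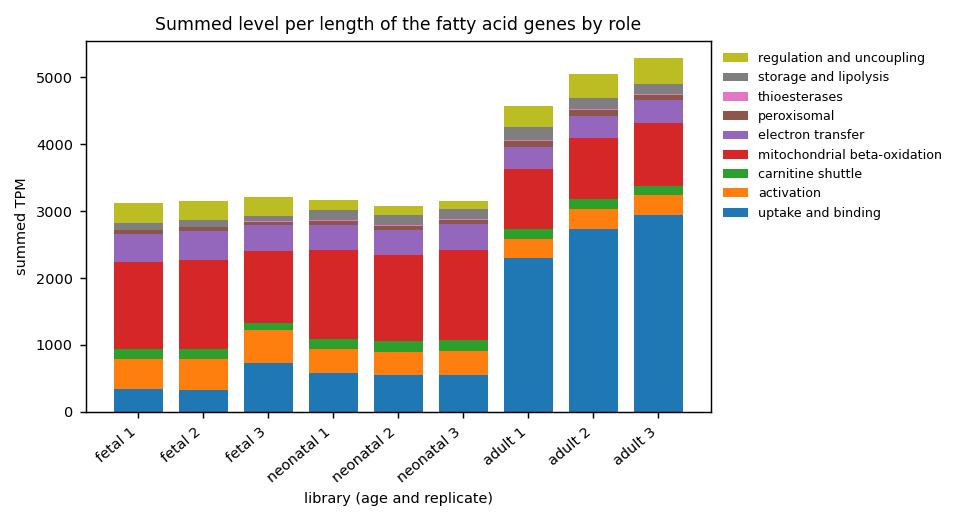
Summed level per length (TPM, axis from 0) of the genes of each role, stacked, in each of the 9 libraries. The uptake and binding block, mostly Fabp5, makes up most of the difference between the adult libraries, which sum to 4569 to 5284 TPM, and the others, which sum to 3081 to 3219 TPM.

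Acyl-CoA synthetases changed in opposite directions. Acsl1, the isoform that dominates in heart muscle and fat (chr16:48937456-48981980), had 36.2, 36.1 and 46.3 CPM in fetal, 34.6, 35.4 and 34.4 in neonatal and 68.9, 63.1 and 62.7 CPM in adult libraries. All adult libraries lay above all others, and the adult level rose by 0.72 (SE 0.10) over fetal and 0.90 (SE 0.10) over neonatal cells on the log2 scale (adjusted p = 0.000164 and 5.46e-05). Acsl3, which serves lipid droplet formation, had 119, 125 and 151 CPM in fetal, 117, 120.4 and 127 in neonatal and 90.5, 98.2 and 95.6 CPM in adult libraries, and fell by 0.47 (SE 0.09, adjusted p = 0.00119) and 0.36 (SE 0.09, adjusted p = 0.00694). The fall against neonatal cells was not called with library size alone as the scaling (adjusted p = 0.0688). Acsl5, an isoform abundant in the intestine, had 296, 303 and 255 CPM in fetal, 208, 194 and 208 in neonatal and 182, 191 and 195 CPM in adult libraries. Its fetal libraries stood above the rest, with a fall by 0.48 (SE 0.08, adjusted p = 0.00167) from fetal to neonatal cells and by 0.59 (SE 0.08, adjusted p = 9.75e-05) from fetal to adult. The difference between neonatal and adult cells was -0.11 (SE 0.08, adjusted p = 0.247). Acsl4, which prefers arachidonic acid, had 112, 116 and 171 CPM in fetal libraries, 133 to 140.2 in neonatal and 149.6 to 156 in adult libraries; it was not called over all libraries (adult against fetal 0.21, SE 0.14, adjusted p = 0.213), and without fetal replicate 3 it lay above fetal by 0.43 in adult (adjusted p = 1.97e-05) and by 0.26 in neonatal cells (adjusted p = 0.00236), and above neonatal by 0.17 in adult cells (adjusted p = 0.00683). Acsl6, the brain isoform, had 0 to 5 counts per library and was not tested. Per length Acsl5 held 57.8%, 50.6% and 48.1% of the summed Acsl level in fetal, neonatal and adult cells, and Acsl1 5.33%, 5.77% and 11%.

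In the carnitine shuttle the muscle isoform fell. Carnitine palmitoyltransferase 1 makes the acylcarnitine that crosses into mitochondria and is the step blocked by malonyl-CoA. Cpt1b, its muscle form (chr7:130395212-130404262), had 7.13, 8.51 and 7.81 CPM in fetal, 5.01, 4.83 and 4.98 in neonatal and 2.98, 5.13 and 2.92 CPM in adult libraries. Fetal libraries were the highest throughout, and the adult level fell by 1.08 (SE 0.22, adjusted p = 0.00177) and the neonatal by 0.66 (SE 0.22, adjusted p = 0.0385) against fetal. Leaving out fetal replicate 1, fetal replicate 2 or any neonatal replicate ended the neonatal call (adjusted p = 0.0531 to 0.122). Adult replicate 2 stood above the other adult libraries: the adult to neonatal difference was -0.42 (adjusted p = 0.131) with it and -0.74 (adjusted p = 0.00671) without it. Cardiomyocyte markers fell in the same order of ages; their part was not tested. Cpt1a, the liver form, had 41.4, 40.9 and 24.4 CPM in fetal, 36.0, 34.0 and 36.4 in neonatal and 29.2, 26.6 and 22.8 CPM in adult libraries, so that fetal replicate 3 lay among the adult libraries. It was not called over all libraries (adult against fetal -0.44, SE 0.19, adjusted p = 0.0583), and without that library adult cells were lower by differences of -0.65 against fetal (adjusted p = 8.16e-05) and -0.44 against neonatal (adjusted p = 0.000877). Cpt1c, the neuronal form with little catalytic activity, had 27.3, 26.1 and 8.13 CPM in fetal, 29.4 to 33.2 in neonatal and 24.6 to 30.0 CPM in adult libraries. It was not called in any pair over all libraries, with an adult to neonatal difference of -0.24 (adjusted p = 0.589). That difference, again -0.24, was called without fetal replicate 3 (adjusted p = 0.0338) and with those 2 ages alone in the fit (adjusted p = 0.0489). Per length, Cpt1c made up 38.3% ± 10.5, 53.5% ± 2.24 and 56.9% ± 2.52 of the 3 Cpt1 genes in fetal, neonatal and adult cells. Crat, which transfers acetyl groups to carnitine, had 89.8, 88.6 and 65.7 CPM in fetal, 108, 106 and 107 in neonatal and 126, 119 and 116 CPM in adult libraries, with no overlap between ages. It rose by 0.39 (SE 0.11, adjusted p = 0.0211) from fetal to neonatal cells and by 0.57 (SE 0.11, adjusted p = 0.00121) from fetal to adult; the first of these was not called without neonatal replicate 1, 2 or 3 (adjusted p = 0.0603, 0.0587 and 0.0584). The adult to neonatal difference of Crat was 0.17 (adjusted p = 0.195), and without fetal replicate 3 it was called (0.17, adjusted p = 0.00955). Cpt2, the inner membrane enzyme, had means of 28.2, 33.9 and 35.1 CPM and was not called in any pair over all libraries. Its fetal replicates 1 to 3 had 31.0, 31.3 and 22.2 CPM. The adult to fetal difference was 0.40 (adjusted p = 0.0459) without fetal replicate 2 and 0.17 (adjusted p = 0.121) without fetal replicate 3.

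Mitochondrial beta-oxidation enzymes differed between ages by small amounts. Of the 11 tested, 1 was higher and 2 lower in adult than in fetal cells (beside 34.9% and 35.5% of all genes), 1 higher and 3 lower in adult against neonatal (beside 31.6% and 31.8%), and 1 higher and none lower in neonatal against fetal (beside 18.3% and 18%). All 11 adult to fetal 95% intervals lay within 1 on the log2 scale. Acadl, long-chain acyl-CoA dehydrogenase (chr9:73833368-73871854), had 159, 169 and 136 CPM in fetal, 166, 156 and 162 in neonatal and 97.0, 94.0 and 97.0 CPM in adult libraries. Its adult libraries lay below all others, and the level fell by 0.69 (SE 0.08, adjusted p = 5.11e-05) against fetal and by 0.75 (SE 0.08, adjusted p = 4.32e-05) against neonatal cells. The other dehydrogenases, Acadm for medium chains, Acads for short chains and Acadvl for very long chains, lay between 35.3 and 79.0 CPM in every library and were not called in any pair, with adult to fetal differences of -0.04, 0.00 and -0.03 (95% intervals -0.25 to 0.16, -0.20 to 0.21 and -0.22 to 0.17). Eci1 and Eci2, isomerases that handle unsaturated fatty acids, moved apart. Eci1 had 39.6, 36.9 and 30.8 CPM in fetal, 43.7, 42.9 and 44.3 in neonatal and 62.7, 57.4 and 53.0 CPM in adult libraries, and rose by 0.69 (SE 0.10, adjusted p = 0.000219) and 0.40 (SE 0.10, adjusted p = 0.00652) in adult cells against fetal and neonatal. Its neonatal to fetal difference of 0.29 (SE 0.10) was not called (adjusted p = 0.0521), and was called without fetal replicate 1 (0.36, adjusted p = 0.0304) or adult replicate 1 (0.29, adjusted p = 0.0459). Without fetal replicate 3 that difference was 0.19 and not called (adjusted p = 0.0737). Eci2 had 44.8, 40.2 and 42.2 CPM in fetal, 44.6, 41.2 and 43.0 in neonatal and 34.5, 32.3 and 34.8 CPM in adult libraries, and fell by 0.32 (SE 0.07, adjusted p = 0.0029) and 0.34 (SE 0.07, adjusted p = 0.00258). Hadh, Acaa2 and Decr1, which act on the later steps or on unsaturated chains, lay at 19.3 to 25.0, 29.4 to 47.9 and 48.8 to 71.2 CPM and were not called over all libraries, with adult to fetal differences of -0.09, -0.22 and -0.20. Without fetal replicate 3, 5 of the 11 were lower and 1 higher in adult than in fetal cells (Acadl, Eci2, Hadhb, Acaa2 and Decr1, and Eci1), beside 37.5% and 37.3% of all genes. Without it Acaa2 and Decr1 were also lower in adult than in neonatal cells (-0.26 and -0.14, adjusted p = 0.00253 and 0.0455), and Decr1 in neonatal than in fetal cells (-0.22, adjusted p = 0.0125). Summed over the 12 listed enzymes, the level was 1239 ± 139, 1321 ± 26.7 and 918 ± 22.5 TPM in fetal, neonatal and adult cells, and 957 ± 136, 1111 ± 22.8 and 873 ± 22.1 CPM after TMM scaling. The adult mean was the lowest on both scales, but fetal replicate 3 summed to 799.7 CPM, below the adult range of 853 to 897, and to 1081 TPM, above the adult range. Without that library the fetal mean was 1035 CPM and 1319 TPM.

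**Figure D3:**
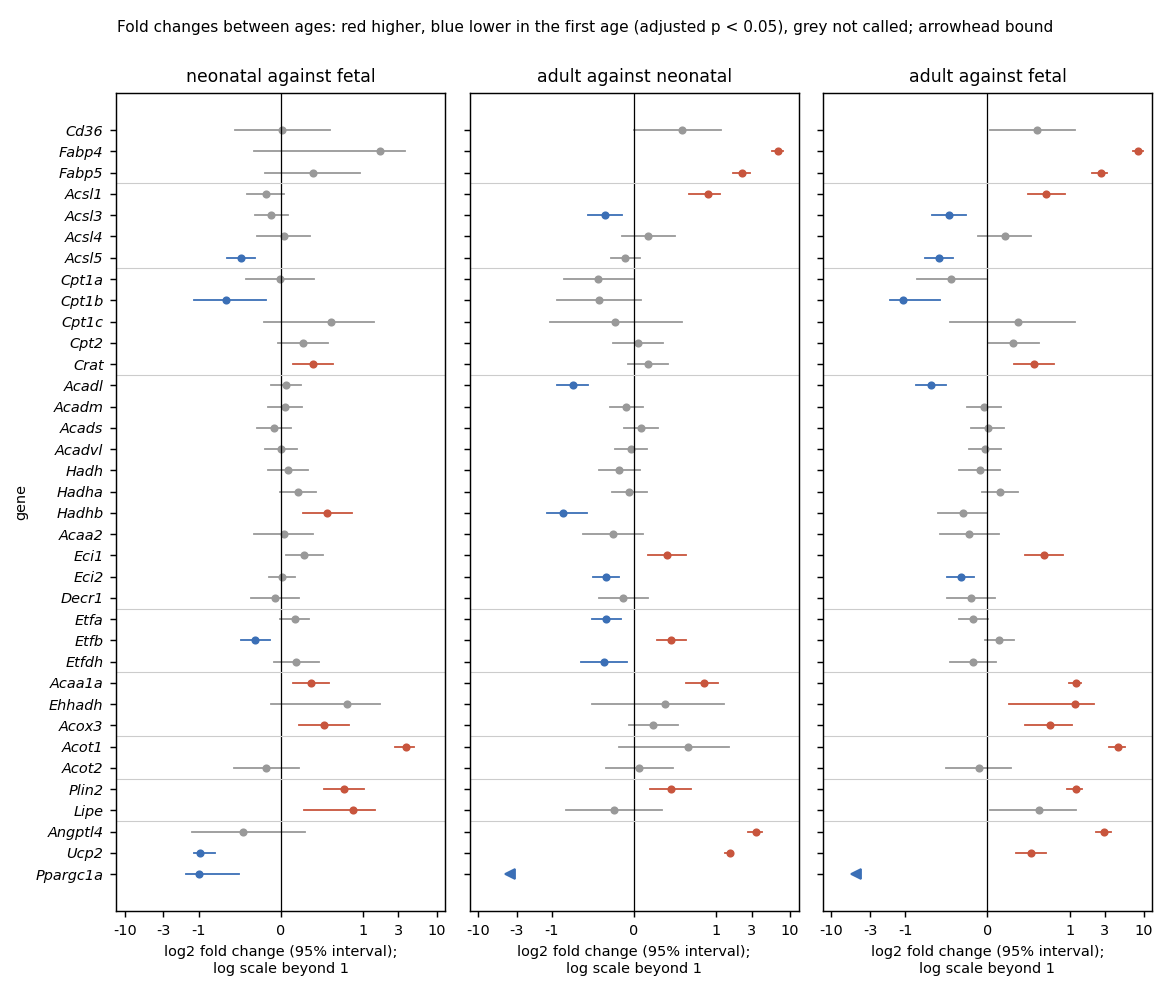
Log2 fold change of each of the 36 tested genes in the 3 pairs of ages, with 95% intervals not adjusted for the number of genes, on an axis that is linear between -1 and 1 and logarithmic beyond. Red points were called higher and blue lower in the age named first, grey points were not called, and the arrowheads of Ppargc1a are bounds against 0 adult counts. Fabp4 lies farthest to the right in both adult panels, and most beta-oxidation and electron transfer points lie within 1 of zero.

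Hadha and Hadhb encode the alpha and beta subunits of the mitochondrial trifunctional protein, which carries out the last 3 steps of the long-chain cycle. They lie head to head on rn6 (Hadhb on the minus strand, chr6:27555408-27589539, and Hadha on the plus strand, chr6:27589840-27628921), 301 bases apart. The sequence between both genes is shown because it serves as the region upstream of each. It comprises 243 bases on GRCr8 (chr6:31907558-31907800, plus strand, RefSeq), read from the Hadhb start to the Hadha start, with a GC box (GGGCGG on either strand) in capitals.
Hadha: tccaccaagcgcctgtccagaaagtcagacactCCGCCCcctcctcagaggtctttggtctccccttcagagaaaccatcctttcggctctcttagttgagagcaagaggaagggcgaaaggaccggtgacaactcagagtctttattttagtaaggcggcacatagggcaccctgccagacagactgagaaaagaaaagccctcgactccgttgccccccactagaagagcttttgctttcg
The subunits did not keep a fixed ratio. Hadha had 204, 212 and 162 CPM in fetal, 222, 218 and 231 in neonatal and 219, 205 and 221 CPM in adult libraries and was not called in any pair. Hadhb had 243, 255 and 173 CPM in fetal, 329.8, 329 and 337 in neonatal and 166, 185 and 193 CPM in adult libraries. Neonatal libraries were the highest for Hadhb without overlap, and it was the 1 gene of the 36 higher in neonatal cells than at both other ages (2.78% of them, beside 4.53% of all genes). The neonatal level rose by 0.57 (SE 0.13, adjusted p = 0.00975) over fetal, and the adult level fell by 0.87 (SE 0.13, adjusted p = 0.000338) against neonatal. The adult to fetal difference was -0.30 (SE 0.13, adjusted p = 0.0629), and without fetal replicate 3 it was -0.46 (adjusted p = 5.68e-05). The ratio of Hadhb to Hadha counts was 1.19, 1.2 and 1.07 in fetal, 1.49, 1.51 and 1.46 in neonatal and 0.758, 0.903 and 0.875 in adult libraries. The ages did not overlap (exact permutation test among the 3 ages, p = 0.00357, adjusted p = 0.0119 over 10 ratios, of which 2 were chosen after their values had been seen). A ratio within a library does not depend on its scaling, but 3 libraries against 3 cannot give an exact p below 0.1, which is the value that each pair of ages gave. This ratio shows unequal change and not which subunit changed.

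Echs1, enoyl-CoA hydratase, was listed at 0 in all 9 libraries. In the table it is annotated at 2 places on chromosome 1 (141821940 to 141830767 and 212570213 to 212579040) with 8 exons each. Pnpla2, the main triglyceride lipase, had 2 counts in neonatal replicate 3 and none elsewhere, and is likewise annotated at 2 places (213997732 to 214002814 and 214434638 to 214439720) with 9 exons each. Exons more than 100000 bases apart were taken as separate places, so a gene with 1 long intron, and not only a repeated gene, can be among these. Cd36 is such a case, with 1 exon at its first place and 14 at its second. Of the 1075 genes of the table at more than 1 place, 46.8% had at most 10 counts in all, against 25.3% of genes at 1 place. Reads from a gene whose exons are repeated can map to more than 1 place, and the counting command names no option for such reads. Their part in the near absence of Echs1 and Pnpla2 counts was not tested, so these counts are not read as the level of either gene.

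Electron transfer from the dehydrogenases showed a neonatal low in 1 of 3 genes, beside 4.01% of all genes. Etfa and Etfb encode the alpha and beta subunits of the electron transfer flavoprotein, and Etfdh the enzyme that passes its electrons to ubiquinone. Etfb had 72.4, 71.3 and 63.7 CPM in fetal, 57.8, 53.5 and 56.2 in neonatal and 73.8, 72.2 and 83.6 CPM in adult libraries. Its neonatal libraries were the lowest without overlap, with a fall by 0.31 (SE 0.08, adjusted p = 0.0161) from fetal cells and a rise of 0.45 (SE 0.08, adjusted p = 0.000891) to adult cells; the first was not called without neonatal replicate 2 or 3 (adjusted p = 0.0769 and 0.0608). Etfa had 101, 99.7 and 87.5 CPM in fetal, 105, 105 and 114 in neonatal and 88.2, 79.2 and 88.3 CPM in adult libraries and fell by 0.34 (SE 0.08, adjusted p = 0.00405) from neonatal to adult cells. Etfdh had 65.5, 70.7 and 48.2 CPM in fetal, 73.4, 67.5 and 69.7 in neonatal and 56.2, 55.1 and 52.5 CPM in adult libraries. Its adult to neonatal difference of -0.36 (SE 0.12, adjusted p = 0.029) was not called without any 1 of the 6 libraries of those ages (adjusted p = 0.0502 to 0.0839). Without fetal replicate 3 that difference was -0.37 and called (adjusted p = 0.000192). Over all libraries none of the 3 was called between adult and fetal cells, where edgeR gave unadjusted 95% intervals from -0.45 to 0.33; without fetal replicate 3, Etfa and Etfdh were called lower in adult cells, with differences of -0.24 and -0.32 (adjusted p = 0.0072 and 0.000916). The ratio of Etfb to Etfa counts was 0.715 to 0.728 in fetal, 0.492 to 0.552 in neonatal and 0.836 to 0.947 in adult libraries (exact permutation p = 0.00357, adjusted p = 0.0119). That of Eci1 to Eci2 was 0.728 to 0.919, 0.98 to 1.04 and 1.52 to 1.82 (the same exact p and adjusted p). Both ratios were chosen after their values had been seen.

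**Figure D4:**
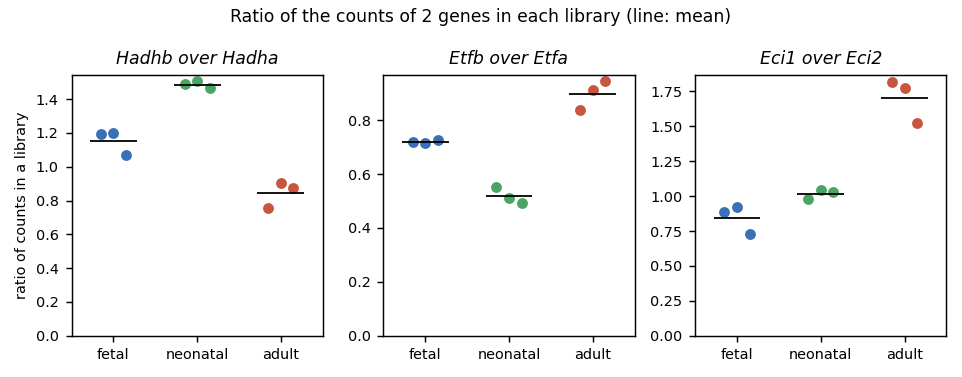
Ratio of the counts of 2 genes (axes from 0) in each library, for the trifunctional protein subunits, the electron transfer flavoprotein subunits and the enoyl-CoA isomerases; points are replicates 1 to 3 from left and lines are means over 3 libraries. In each panel the 3 ages occupy separate ranges, with the neonatal libraries highest for Hadhb over Hadha at 1.46 to 1.51 and lowest for Etfb over Etfa at 0.492 to 0.552.

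Among the 10 ratios of related genes, 8 differed among ages at an adjusted p under 0.05 (exact permutation tests over 1680 arrangements of the libraries). Ratios of other gene pairs were not tested, so no share over all pairs stands beside this count. Of all genes, 77.6% differed among the 3 ages (edgeR, adjusted p under 0.05). The 8 include Etfb to Etfa and Eci1 to Eci2, which were chosen after their values had been seen. Both also entered the adjustment over 10 ratios, so the adjusted p of the other ratios depend on them. The mean ratio of Acsl1 to Acsl3 counts was 0.300, 0.287 and 0.687 in fetal, neonatal and adult libraries (exact permutation, adjusted p = 0.0153), and that of Acsl4 to Acsl3 1.00, 1.12 and 1.62 (exact permutation, adjusted p = 0.0153). Cpt1c to Cpt1a gave 0.543, 0.882 and 1.02 (exact permutation, adjusted p = 0.0143); without adult replicate 2 its unadjusted exact p was 0.05, against 0.00714 over all libraries. The ratios of Cpt1b to Cpt1a and of Acsl5 to Acsl3 did not pass (exact permutation, adjusted p = 0.0952 and 0.136). Without adult replicate 2 the unadjusted exact p of the first was 0.025, and without fetal replicate 3 that of the second was 0.00357.

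Each of the 3 peroxisomal genes was called higher in adult than in fetal cells, 1 of them on a call that several settings ended. Peroxisomes shorten very long and branched fatty acids. Acaa1a, peroxisomal thiolase (chr8:128027880-128036471), had 24.5, 23.6 and 23.5 CPM in fetal, 29.4, 32.1 and 30.8 in neonatal and 59.8, 58.8 and 47.5 CPM in adult libraries. The ages did not overlap, and each step was a rise, by 0.37 (SE 0.10, adjusted p = 0.0167) and 0.85 (SE 0.10, adjusted p = 5.56e-05). The first step was not called with library size alone (adjusted p = 0.139) or without neonatal replicate 2 (adjusted p = 0.0648). Acox3, an acyl-CoA oxidase for branched chains, had 18.5, 15.5 and 12.5 CPM in fetal, 22.7, 22.2 and 22.1 in neonatal and 26.9, 27.9 and 24.1 CPM in adult libraries. Here too the ages did not overlap; the level rose by 0.53 (SE 0.13, adjusted p = 0.0144) from fetal to neonatal and by 0.76 (SE 0.13, adjusted p = 0.00067) from fetal to adult cells, while the adult to neonatal difference of 0.23 (SE 0.13) was not called (adjusted p = 0.149) over all libraries and was called (adjusted p = 0.0395) without fetal replicate 3. Ehhadh, the bifunctional enzyme, was low, with 1.13, 1.5 and 0.69 CPM in fetal, 2.09, 1.53 and 2.27 in neonatal and 2.45, 3.76 and 1.42 CPM in adult libraries, which overlapped the fetal range. It was called higher in adult than in fetal cells (1.18, SE 0.41, adjusted p = 0.0265), a call lost without adult replicate 2 (adjusted p = 0.128), without fetal replicate 1 (adjusted p = 0.061) and with those 2 ages alone in the fit (adjusted p = 0.0603). Of the 3, all were thus called higher in adult against fetal cells (beside 34.9% of all genes), 2 in neonatal against fetal (beside 18.3%) and 1 in adult against neonatal (beside 31.6%).

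The cytosolic thioesterase Acot1 rose before adulthood. Acot1 and Acot2 hydrolyse acyl-CoA to free fatty acid in the cytosol and the mitochondrion, and their genes stand side by side, 17610 bases apart with no other gene of the table between them (Acot1 at chr6:107485088-107493080). Acot1 had 0.38, 0.18 and 0.43 CPM in fetal, 4.68, 4.55 and 4.66 in neonatal and 11.9, 6.36 and 3.74 CPM in adult libraries. Fetal libraries lay below all others, and adult replicate 3 lay below the neonatal range. The neonatal mean was 14.2 times the fetal (log2 3.83, SE 0.49, adjusted p = 0.000546) and the adult mean 22.4 times the fetal (log2 4.49, SE 0.49, adjusted p = 3.03e-05), while adult and neonatal cells were not called different (0.66, SE 0.37, 95% interval -0.19 to 1.5, adjusted p = 0.153). That difference was 0.97 (adjusted p = 0.0256) without adult replicate 3 and 0.13 (adjusted p = 0.736) without adult replicate 1. Acot2 had 6.70, 5.91 and 5.68 CPM in fetal, 4.88 to 6.02 in neonatal and 4.84 to 6.81 CPM in adult libraries and was not called in any pair. The ratio of Acot1 to Acot2 counts was 0.0537 ± 0.0226, 0.861 ± 0.0806 and 1.25 ± 0.521 (SD, n = 3; exact permutation among 3 ages, adjusted p = 0.0179). The paralogs are similar in sequence, so the split of reads between them is uncertain.

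Both tested genes of droplet storage and lipolysis were higher in neonatal than in fetal cells, beside 18.3% of all genes. Plin2, the perilipin that coats droplets in cells other than adipocytes (rn6 chr5:104996999-105010799), had 77.7, 76.7 and 62.0 CPM in fetal, 126, 123 and 122 in neonatal and 192, 162 and 150.0 CPM in adult libraries. The 3 ages did not overlap, and each step was a rise, by 0.78 (SE 0.11, adjusted p = 0.000954) and 0.44 (SE 0.11, adjusted p = 0.00581), to an adult mean 2.33 times the fetal (adjusted p = 8.99e-06). Over all libraries, Plin2 and Acaa1a were the only tested genes of the 36 called higher at both steps (5.56%, beside 8.19% of all genes). Without fetal replicate 3, Fabp4, Fabp5, Acsl4, Crat and Acox3 were also called higher at both steps. The promoter of Plin2 is shown as that of a gene that rose at each step. It is the 250 bases before the start on GRCr8 (chr5:106229019-106229268, minus strand, RefSeq), with a GC box in capitals.
Plin2: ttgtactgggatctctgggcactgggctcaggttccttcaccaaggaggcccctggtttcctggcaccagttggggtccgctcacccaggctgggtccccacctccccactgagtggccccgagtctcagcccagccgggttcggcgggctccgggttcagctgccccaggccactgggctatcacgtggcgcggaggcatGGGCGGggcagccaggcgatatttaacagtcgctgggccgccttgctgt
Lipe, hormone-sensitive lipase, which splits diglyceride, was low, at 6.64, 4.37 and 2.87 CPM in fetal, 8.81, 8.92 and 7.77 in neonatal and 7.19, 7.95 and 6.37 CPM in adult libraries. It was higher in neonatal than in fetal cells by 0.88 (SE 0.26, adjusted p = 0.0284); the call was lost without fetal replicate 2 or any 1 neonatal library (adjusted p = 0.0583 to 0.0861) and with those 2 ages alone in the fit (adjusted p = 0.0522). Its adult to fetal difference of 0.63 (SE 0.27) was not called (adjusted p = 0.0575), and was 0.97 (adjusted p = 0.00463) without fetal replicate 1. Without fetal replicate 3, the lowest fetal library, that difference was 0.39 (adjusted p = 0.0892).

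The 3 genes of regulation and uncoupling each followed a course of its own. Angptl4, a secreted inhibitor of lipoprotein lipase and a known PPAR target (rn6 chr7:18627814-18634043), had 1.46, 1.10 and 0.90 CPM in fetal, 1.10, 0.70 and 0.71 in neonatal and 11, 9.68 and 6.29 CPM in adult libraries. Every adult library exceeded every other, at 7.76 times the fetal (log2 2.96, SE 0.30, adjusted p = 1.93e-05) and 10.7 times the neonatal mean (log2 3.42, SE 0.32, adjusted p = 1.52e-05). Ucp2, a mitochondrial carrier found in many cell types and abundant in macrophages (chr1:165506375-165512744), had 214, 205 and 189 CPM in fetal, 105, 104 and 98.0 in neonatal and 267, 293 and 319.7 CPM in adult libraries. It was lowest in neonatal cells and highest in adult cells with no overlap, falling by 0.99 (SE 0.08, adjusted p = 5.38e-05) and then rising by 1.52 (SE 0.08, adjusted p = 6.16e-07). Of the 14 macrophage markers 13 were higher in adult libraries, and their part in these rises was not tested. Ppargc1a, the coactivator PGC-1alpha (rn6 chr14:63095827-63186819), went the other way, with 5.24, 5.82 and 5.84 CPM in fetal, 2.86, 3.16 and 2.40 in neonatal libraries and 0 counts in each adult library. It fell by 1.00 (SE 0.21, adjusted p = 0.00998) from fetal to neonatal cells, a call lost without neonatal replicate 3 (adjusted p = 0.0511). A count of 0 allows up to 0.224 CPM, so the adult level was at least 25.2-fold lower than fetal and at least 12.5-fold lower than neonatal, with adjusted p of 2.26e-06 and 9.94e-06. Over all libraries it was the 1 gene of the 36 that fell at both steps, beside 7.99% of all genes. Without fetal replicate 3, Decr1 was called lower at both steps too. Cardiomyocyte markers fell in the same order, and heart muscle is rich in PGC-1alpha; their part was not tested. The upstream sequences of Angptl4, which rose in adult cells, and of Ppargc1a, which fell at both steps, are shown as the largest opposite moves among the regulators. Each is 250 bases before the start on GRCr8 from RefSeq (Angptl4 at chr7:15258682-15258931, minus strand, and Ppargc1a at chr14:63634058-63634307, plus strand). Capitals mark a GC box and overlapping TATA boxes on both strands (TATAAA) for Angptl4, and a cAMP response element (TGACGTCA) for Ppargc1a, a motif added to the search after that sequence had been read.
Angptl4: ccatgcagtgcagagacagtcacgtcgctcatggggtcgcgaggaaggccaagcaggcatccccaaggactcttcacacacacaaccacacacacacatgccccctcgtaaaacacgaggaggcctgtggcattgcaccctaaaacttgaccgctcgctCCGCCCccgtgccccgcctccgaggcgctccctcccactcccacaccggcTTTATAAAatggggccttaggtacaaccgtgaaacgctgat
Ppargc1a: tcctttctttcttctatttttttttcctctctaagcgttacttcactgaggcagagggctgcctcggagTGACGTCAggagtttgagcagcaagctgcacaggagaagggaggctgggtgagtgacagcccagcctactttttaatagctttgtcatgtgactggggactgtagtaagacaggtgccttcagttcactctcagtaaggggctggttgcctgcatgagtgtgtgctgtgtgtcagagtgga
A match is a description of letters and not of a bound site.

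**Figure D5:**
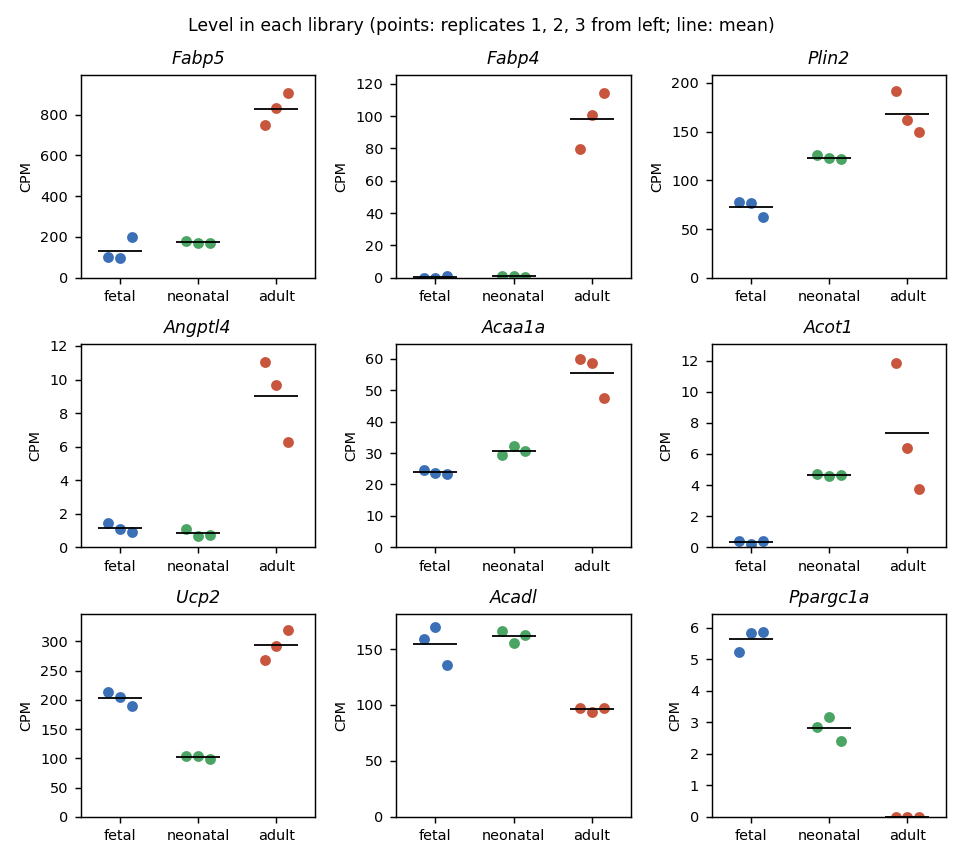
Level in CPM (axes from 0) of 9 fatty acid genes in each library; points are replicates 1 to 3 from left and lines are means over 3 libraries. Adult libraries lie above all others for Fabp5, Fabp4, Plin2, Angptl4, Acaa1a and Ucp2 and below them for Acadl and Ppargc1a, whereas the adult points of Acot1 spread from 3.74 to 11.9 CPM around the neonatal ones.

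Promoters in the RefSeq table matched 31 of the 39 genes; Fabp4, Fabp5, Cpt1b, Cpt1c, Acadl, Acaa2, Decr1 and Lipe had no match. The 250 bases before each start were searched on both strands. The GC box GGGCGG was found in 19 of the 31 (61.3%), beside 30.5% of all 33469 promoters; the median share of G and C was 60% in the 31 and 51.2% in all, and its part in the matches was not tested. The NRF1 site (GCGCA, any base, GCGC) stood in those of Etfb and Etfdh (6.45%, beside 3.75% of all). The cAMP response element stood in those of Acadm and Ppargc1a (6.45%, beside 1.59%), CCAAT in 9 (29%, beside 34%) and TATAAA in 4 (12.9%, beside 12.9%). The cAMP response element was added after the Ppargc1a sequence had been read, so its share among the 31 counts a match known beforehand. The PPAR direct repeat (AGGTCA repeated after 1 base), the estrogen-related receptor site TCAAGGTCA and the PU.1 site GAGGAAGT were in none of the 31, beside 0.0508%, 0.388% and 2.04% of all promoters. Sites that differ by a letter and sites farther from the start were not searched.

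By course over age, 8 of the 36 were higher in adult cells than at both other ages: Fabp4, Fabp5, Acsl1, Eci1, Acaa1a, Plin2, Angptl4 and Ucp2. This is 22.2%, beside 26.5% of all genes. Lower in adult cells than at both other ages were Acsl3, Acadl, Eci2 and Ppargc1a, which is 11.1%, beside 26.7%. Both counts are over all libraries. Without fetal replicate 3, Cpt1a, Hadhb, Acaa2, Decr1, Etfa and Etfdh were also lower in adult cells than at both other ages. Cd36, Acsl4, Crat and Acox3 were then also higher than at both. The shares of all genes on these courses were not counted without that library. Called in no pair over all libraries were 13 of the 36: Cd36, Acsl4, Cpt1a, Cpt1c, Cpt2, Acadm, Acads, Acadvl, Hadh, Hadha, Acaa2, Decr1 and Acot2. Without fetal replicate 3 the count of the 36 lower in adult than in fetal cells was 12 in place of 6 (beside 37.5% of all genes), and the count lower in adult than in neonatal cells 11 in place of 7 (beside 36.2%), with 14 and 13 higher (beside 37.3% and 36.1%). In neonatal against fetal cells it left 10 higher and 6 lower, beside 21% and 19.6%. Without neonatal replicate 2 that pair had 4 higher and 3 lower, beside 12% and 9.44%, and without neonatal replicate 3 it had 2 lower, beside 9.58%. With library size alone as the scaling, 11 of the 36 were lower in adult than in fetal cells, beside 39.3% of all genes.

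A second list held 72 other genes of fatty acid transport, regulation, oxidation, storage and synthesis, of which 70 were in the table and 63 were tested. Of these, 27 were higher and 15 lower in adult than in fetal cells (66.7% called), 19 higher and 17 lower in adult than in neonatal cells (57.1%), and 22 higher and 9 lower in neonatal than in fetal cells (49.2%), beside the 70.5%, 63.5% and 36.3% given above. Among transporters Fabp3, the heart-type binding protein, fell: it had 339.7, 327 and 234 CPM in fetal, 135, 129 and 130.5 in neonatal and 31.3, 22.1 and 32.4 CPM in adult libraries. The ages did not overlap, and the differences were -1.19 (SE 0.16, adjusted p = 0.000832) from fetal to neonatal and -2.20 (SE 0.17, adjusted p = 6.85e-06) from neonatal to adult cells, beside the fall of the cardiomyocyte markers. Lpl, the lipase that frees fatty acids from lipoproteins and is inhibited by ANGPTL4, had 67.6, 77.2 and 71.9 CPM in fetal, 130.1, 132 and 139.7 in neonatal and 842, 404.5 and 289 CPM in adult libraries, with adult replicate 1 far above the other adult libraries; the adult to fetal difference was 2.82 (SE 0.34, adjusted p = 8.55e-05). Slc27a1, the fatty acid transport protein 1, rose by 1.16 (SE 0.19, adjusted p = 0.0022) from fetal to neonatal cells and was not called between neonatal and adult.

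Of 13 regulators in the second list, 4 were higher and 5 lower in adult against fetal cells, which is 30.8% and 38.5%, near the 34.9% and 35.5% of all genes. Prkaa2, the alpha2 catalytic subunit of AMP-activated kinase, had 17.8, 18.5 and 18.7 CPM in fetal, 6.33, 7.85 and 6.47 in neonatal and 0.15, 0 and 0.45 CPM in adult libraries, and was called lower at each step (-1.41, SE 0.26, adjusted p = 0.0036, and -5.07, SE 0.44, adjusted p = 1.07e-05), in the order in which the cardiomyocyte markers fell. Acacb, which makes the malonyl-CoA that blocks CPT1, was lower in adult cells by differences of -3.37 and -2.65 against fetal and neonatal (adjusted p = 2.54e-06 and 1.93e-05), and Pdk4, a kinase that restrains glucose oxidation, by -1.50 and -2.06 (adjusted p = 0.00233 and 0.00038). The receptors Ppara and Pparg were low, at 0.84 to 3.58 and 1.10 to 2.34 CPM, and were not called in any pair. Ppard lay between 48.2 and 65.4 CPM with an adult to fetal difference of 0.37 (SE 0.06, adjusted p = 0.000307), and Rxra, its partner, one of 0.88 (SE 0.08, adjusted p = 7.92e-06). Esrra, a receptor that acts with PGC-1alpha, was lower in neonatal than in fetal cells (-0.55, SE 0.08, adjusted p = 0.00107) and higher in adult than in neonatal cells (0.96, SE 0.08, adjusted p = 8.93e-06).

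Of 12 peroxisomal genes in the second list, 7 were higher and none lower in neonatal than in fetal cells (beside 18.3% and 18% of all genes), and 7 were higher and 1 lower in adult than in fetal cells (beside 34.9% and 35.5%). Scp2, the thiolase that also carries sterols, had 89.2, 88.0 and 73.0 CPM in fetal, 117, 113 and 114 in neonatal and 233, 172 and 182 CPM in adult libraries, without overlap, and an adult to fetal difference of 1.23 (SE 0.12, adjusted p = 1.35e-05). Among 10 tested droplet and lipolysis genes, 6 were higher and 2 lower in adult than in fetal cells, beside the same 34.9% and 35.5%. G0s2, an inhibitor of the lipase PNPLA2, had 4.0, 4.01 and 4.41 CPM in fetal, 3.08, 3.95 and 4.98 in neonatal and 46.8, 32.6 and 36.2 CPM in adult libraries, with all adult libraries above all others (3.22, SE 0.19, adjusted p = 5.9e-07 against fetal, and 3.27, SE 0.19, adjusted p = 1.11e-06 against neonatal). Gpam, which starts glycerolipid synthesis, was called lower in adult cells against fetal (-1.45, SE 0.09, adjusted p = 6.55e-07). In the mitochondrial group of 8, 2 were higher and 3 lower in that pair, beside the same shares. Carnitine transport itself, by Slc22a5 across the plasma membrane and Slc25a20 across the inner mitochondrial membrane, was not called different in any pair.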

How the data were processed

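Gene counts for 9 libraries were made by the authors with featureCounts 1.6.3 and an rn6 annotation, per the file headers, whose counting command names no strand, pairing or multi-mapping option. The submitters' processing notes also name Trimmomatic 0.39, STAR 2.5.2b, FastQC, Subread 1.6.3 and DESeq2. The exon length of each gene was deposited in the same table. A second deposited table held a normalized signal for 12786 genes, in which each count had been divided by its library's size factor; only those size factors were used, as an alternative scaling.

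Genes were kept by filterByExpr with age as the group, which left 11337. Libraries were scaled by TMM, and edgeR 4.0.16 in R 4.3.3 (glmQLFit with robust moderation, glmQLFTest) was fitted to all 9 libraries with a single term, age. The Benjamini-Hochberg adjustment of p-values ran over all genes tested within a comparison, with a threshold of 0.05. The standard error was the fold change divided by the square root of F, and 95% intervals from a t quantile. TPM was computed from counts and exon length over all 17337 genes. Folds against an age with at most 3 counts in every library are bounds against 3 counts per library. Ratios used log2 counts with a pseudocount of 0.5 and two-sided exact permutation tests among 3 ages. The scripts were checked on simulated data. The text names every listed gene in the table by role; in full are, per pair of ages, the 6 called with the largest change in each direction, without overlap and whose higher mean reached 5 CPM, and the genes with the largest adjusted p of a role whose others were called. Erythroid markers summed to 0.453 to 2.28 CPM. Members and lists were chosen with earlier results of these data known. Replicate numbers did not pair the libraries. Symbols were matched to RefSeq promoters of GRCr8.

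Alternatives were DESeq2 1.42.0, the deposited size factors, library size alone, no filter, a filter of 1 CPM in 3 libraries, only the 2 ages compared, no robust moderation, a replicate block and each library left out in turn.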

Additional observations from a re-analysis of the deposited data

How the results depend on the processing

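Over 17 settings, 17 of the 18 genes called between adult and fetal cells, 14 of 16 between adult and neonatal and 6 of 12 between neonatal and fetal were called under every one; those lost are named with their values above. No called gene changed direction under any of these settings. In adult against neonatal cells, Cd36, Acsl4, Cpt1a, Cpt1c, Crat, Acaa2 and Acox3 were called both without fetal replicate 3 and with only those 2 ages in the fit. With library size alone, 11 genes of the set were lower in adult against fetal cells (6 with TMM), the median log2 change of the set between neonatal and fetal cells was -0.11 (0.06 with TMM), and the median of all genes moved to -0.18 and, for adult against fetal, to -0.12; 29% of neonatal against fetal calls were then higher, in place of 50.4%. The summed level of the set, in CPM by library size, was 0.935 times fetal in neonatal and 1.27 times in adult cells, against 0.990 and 1.57 in TPM.

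Leaving out 1 library at a time, the set's counts ran from 11 to 14 higher and 6 to 12 lower (adult against fetal), 9 to 13 and 6 to 11 (adult against neonatal) and 4 to 10 and 2 to 6 (neonatal against fetal). Counts of all genes called between neonatal and fetal cells ran from 2476 to 4679 (4114 with all libraries), lowest without neonatal replicate 2, with 2607 and 2575 without replicates 1 and 3. In that pair the second list had 13 to 31 calls, with 16, 15 and 13 without neonatal replicates 1, 2 and 3; the set had 4 higher and 3 lower without replicate 2, and 2 lower without replicate 3. An age with 2 libraries was assumed to vary like the others. Leaving libraries out of the ratios and of the summed levels was chosen after seeing the data.

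The libraries share only a number: same-numbered libraries of different ages correlated at -0.0649 to 0.0521, and 4 of 9 correlated best with their own number. With a replicate block the set had 14 higher and 7 lower genes (adult against fetal), 9 and 8 (adult against neonatal) and 8 and 5 (neonatal against fetal), and all genes gave 7801, 6985 and 3713 calls.

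Genes below about 5 CPM, such as Cd36, Ehhadh, Cpt1b and fetal Acot1, rest on few counts, and 3 libraries an age limit the precision of every value.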

Other observations

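Genes of fatty acid synthesis, another group of the second list, were called in both directions. Of 11 tested, 4 were higher and 2 lower in adult than in fetal cells, and 6 were higher and 2 lower in neonatal than in fetal cells, beside 34.9% and 35.5%, and 18.3% and 18%, of all genes. Scd1, stearoyl-CoA desaturase, was called higher in adult cells against fetal by 1.41 (SE 0.07, edgeR adjusted p = 2.4e-07) and in neonatal than in fetal cells by 0.55 (SE 0.07, adjusted p = 0.000572). Fads1, the delta-5 desaturase, was higher by 0.83 and 0.72 in the same pairs (adjusted p = 4.99e-06 and 0.000111), and Elovl1, an elongase of very long chains, by 1.01 and 0.34 (adjusted p = 1.7e-06 and 0.00551). Lower in adult than in fetal cells were Acaca, which makes malonyl-CoA for synthesis (-1.30, SE 0.08, adjusted p = 5.0e-07), and Me1, which supplies NADPH (-1.58, SE 0.23, adjusted p = 0.000229). Srebf1, a transcription factor of lipid synthesis, was higher in adult cells by 1.21 (SE 0.15, adjusted p = 6.14e-05).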
